A study of Mus musculus with 4 samples.

Results

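The genes described here encode the immunoproteasome and the machinery that loads peptides onto MHC class I molecules in mouse macrophages treated with proteasome inhibitors. They are a list of names chosen by role. No measured value enters the rule, but the list was chosen with earlier results of these data known. It holds *Psmb8*, *Psmb9* and *Psmb10* for the inducible catalytic subunits and *Psme1* and *Psme2* for the activator PA28. *Tap1*, *Tap2* and *Tapbp* stand for peptide transport and loading. *B2m* stands for the light chain of class I molecules, and *Nlrc5* for a transactivator of class I genes. All 10 of the 10 genes had a probe on the array, with 12 probes between them, out of 20133 genes and 39429 probes in all. RNA came from J774.1 cells, a mouse monocyte-macrophage line, which were cultured for 4 hours with the solvent DMSO alone or together with MG132, epoxomicin or ONX0914 at 1 μM. MG132 is a general proteasome inhibitor, epoxomicin acts on the 20S core, and ONX0914 acts on the β5 and β5i subunits, that is, on the product of *Psmb8* and its constitutive counterpart. Each condition was read on 1 array in a single color. For the last array the treatment protocol names ONX0914, the title an ONX compound with no such number, and the treatment label ONX-0912, and it was taken as ONX0914.

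Proteasomes cut cytosolic proteins into peptides, and cells of the immune system replace the catalytic subunits β1, β2 and β5 by β1i, β2i and β5i to form the immunoproteasome. The peptides are carried into the endoplasmic reticulum by the TAP transporter, are fitted into class I heavy chains paired with β2-microglobulin with the help of tapasin, and travel to the cell surface for inspection by CD8 T cells. Macrophages carry much of this machinery at rest, and interferons are known to raise it.

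Every array held 44397 spots, of which 43020 were not controls, and no spot was saturated. Between 60.3% and 63.1% of the spots were well above background. The level of a gene is given below as the processed signal, which is the brightness of its spot after background subtraction, and a difference is the log2 signal relative to the 75th percentile of the array minus the same for DMSO. That percentile lay between 1448 and 1669. Where 3 values are given in a row, they follow the order MG132, epoxomicin and ONX0914. The software's own error was 10% of the signal for bright spots, which makes ± 0.20 for a difference on the log2 scale, and it is a set minimum rather than a measured spread. The measured spread between the 10 spots of the 399 probes printed repeatedly was smaller, with a median SD between 0.055 and 0.061 on the log2 scale. Neither covers the spread between cultures, and with 1 array per condition no difference could be tested. Of the 8 macrophage markers looked for, 7 had a probe and all 7 were well above background on every array, *Csf1r*, *Itgam* and *Cd14* among them. Their summed signal was between 184 and 215 times the 75th percentile of the array, lowest after epoxomicin and highest in DMSO. *Csf1r* and *Cd14*, the brightest of these markers, differed from DMSO by -0.16, -0.14 and -0.03 and by -0.38, -0.42 and -0.06. Among the dimmer ones, the differences were 0.35, -0.05 and -0.28 for *Itgam*, -0.60, -1.01 and 0.14 for *Lyz2* and -0.52, -0.97 and 0.08 for *Spi1*. The part of this shift in the results below was not tested. At most 1 of 5 T cell markers (*Cd3e*), 1 of 5 B cell markers (*Cd79b*) and 2 of 5 fibroblast markers were above background on an array. *Cd3d*, *Cd8a*, *Ms4a1*, *Col1a1* and *Col3a1* were not well above background on any array.

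*Tap1* and *Nlrc5* were at least 2-fold higher with each inhibitor, and the other 8 genes stayed within 1.5-fold of DMSO with each of them. Thus 2 of 10 genes were at least 2-fold higher after MG132, where 7.24% of the 13771 genes compared were. The same 2 genes passed after epoxomicin, where the share of all genes was 8.48%, and after ONX0914, where it was 3.27%. None of the 10 was at least 2-fold lower, against 3.68% of all genes after MG132, 4.4% after epoxomicin and 1.4% after ONX0914. Over all 13464 genes compared on every array, 2.02% were at least 2-fold higher with all 3 inhibitors and 0.995% at least 2-fold lower. The median difference of the 10 genes was 0.27 after MG132, 0.25 after epoxomicin and 0.21 after ONX0914, and that of all genes was -0.02, -0.04 and -0.01. Without *Tap1* and *Nlrc5*, which were set aside after their values were seen, the median of the other 8 was 0.13, 0.09 and 0.18. In RNA of a whole culture, more RNA per cell and more cells with the RNA cannot be told apart. The 3 comparisons share the DMSO array, so that an error on that array enters each of them.

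**Figure D1:**
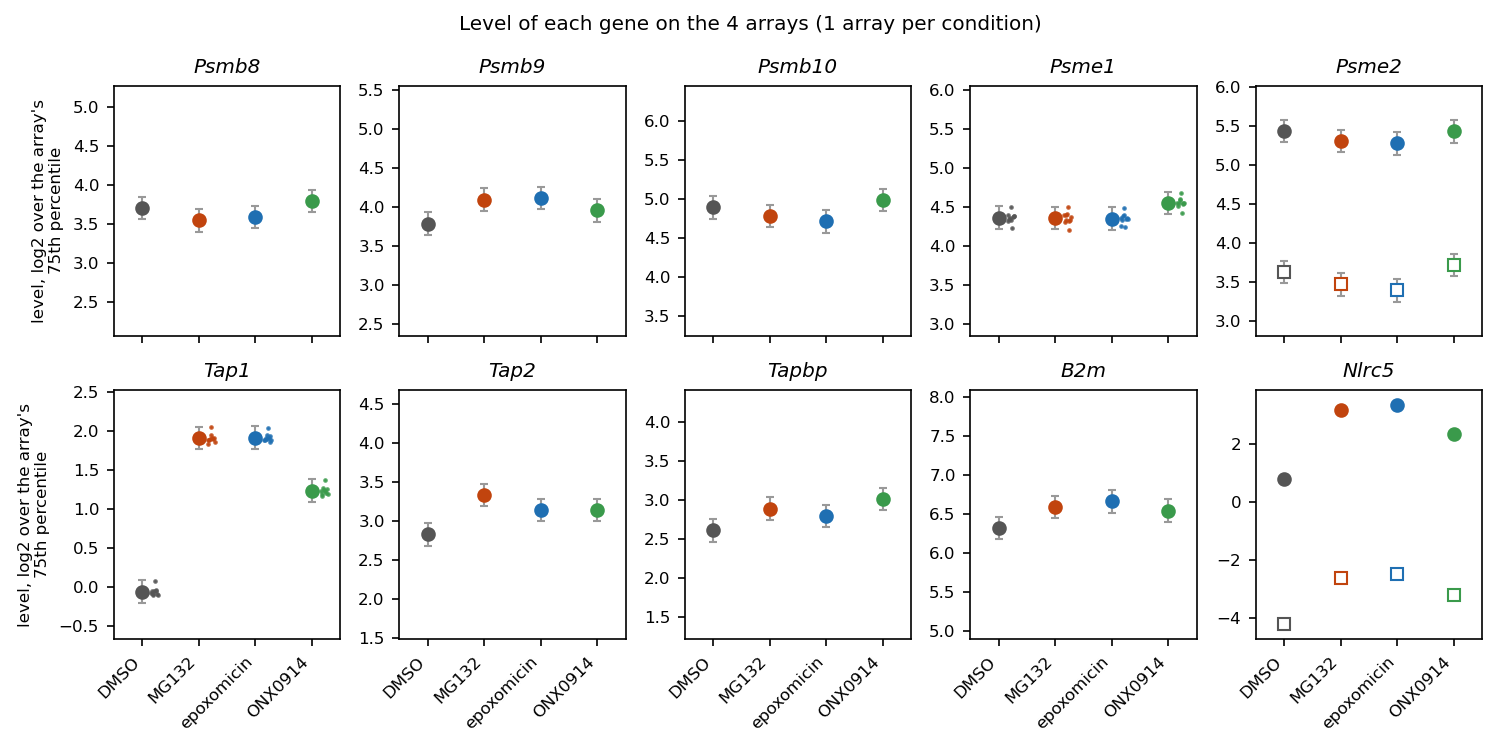
Level of each of the 10 genes on the 4 arrays, as log2 of the processed signal over the 75th percentile of the array. Large filled circles are the probe that stands for the gene, open squares a second probe, small points the 10 spots of *Psme1* and *Tap1*, and bars the error of the scanner software. Each axis spans about 3.2 log2 units except that of *Nlrc5*, which is wider, and in *Psme2* the second probe runs below the main one. *Tap1* and *Nlrc5* stand higher on every inhibitor array than on the DMSO array.

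Promoter sequences are shown for *Tap1* and *Psmb9*, on which the results turn, and for 2 genes with other motifs. Positions are those of RefSeq on GRCm38.p6. In the MHC region of chromosome 17, 4 of the genes form a block, *Psmb9* (chr17:34182030-34187330), *Tap1* (chr17:34187556-34197225), *Psmb8* (chr17:34198195-34201454) and *Tap2* (chr17:34204479-34216321), with *Tapbp* (chr17:33919478-33929290) nearby. *Psme1* (chr14:55578494-55581527) and *Psme2* (chr14:55587440-55591101) are neighbours too, while *Nlrc5* (chr8:94434335-94527272), *Psmb10* (chr8:105935728-105938392) and *B2m* (chr2:122147687-122153082) stand apart. *Tap1* and *Psmb9* lie head to head, with 226 bases between their annotated starts, *Tap1* on the plus strand and *Psmb9* on the minus strand. The windows from 250 bases before to 50 bases after each start share 275 bases, so that the sequence below is nearly all of both promoters. It is the window of *Tap1*, chr17:34187306-34187605, plus strand. The window of *B2m* (chr2:122147437-122147736, plus strand) is shown because it held the most kinds of match, and that of *Psmb8* (chr17:34197945-34198244, plus strand) because it was the only one of the 8 genes with a GAS match. Capitals mark every match to a motif searched on both strands.
Tap1: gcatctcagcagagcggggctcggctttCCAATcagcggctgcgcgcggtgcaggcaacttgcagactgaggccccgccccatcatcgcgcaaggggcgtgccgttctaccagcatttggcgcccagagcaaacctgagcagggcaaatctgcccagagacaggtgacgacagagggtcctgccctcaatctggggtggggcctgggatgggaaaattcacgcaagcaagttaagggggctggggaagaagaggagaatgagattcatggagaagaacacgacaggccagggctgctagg
B2m: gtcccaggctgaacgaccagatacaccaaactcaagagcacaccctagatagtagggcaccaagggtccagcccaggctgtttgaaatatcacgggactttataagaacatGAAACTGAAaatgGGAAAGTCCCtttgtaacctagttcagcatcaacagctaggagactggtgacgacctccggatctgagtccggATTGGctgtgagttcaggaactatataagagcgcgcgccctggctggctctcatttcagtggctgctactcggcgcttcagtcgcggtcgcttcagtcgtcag
Psmb8: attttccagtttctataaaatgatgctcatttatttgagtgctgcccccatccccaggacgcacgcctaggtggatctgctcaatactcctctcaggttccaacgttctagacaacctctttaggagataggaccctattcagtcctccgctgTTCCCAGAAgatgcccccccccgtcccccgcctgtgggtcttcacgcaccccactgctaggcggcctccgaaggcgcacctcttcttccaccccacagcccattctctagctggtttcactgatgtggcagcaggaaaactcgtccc

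The motifs were a short form of the interferon-stimulated response element (ISRE type, GAAANNGAA), the gamma-activated site bound by STAT dimers (GAS, TTCNNNGAA, the same on both strands), the CCAAT box (CCAAT), the core of the antioxidant response element (TGACNNNGC) and the NF-kB consensus. RefSeq windows were at hand for 8 of the 10 genes, and those of *Nlrc5* and *Tap2* were not analysed here. *Tap1* and *Psmb9* held the same CCAAT box, at -222 to -218 from the start of *Tap1* and at -8 to -4 from that of *Psmb9*. *B2m* held an ISRE type match at -139 to -131, an NF-kB match at -126 to -117 and a CCAAT box at -53 to -49. *Psmb8* held a GAS match at -97 to -89, *Psme1* an ISRE type match at 11 to 19 past its start, and *Tapbp* a CCAAT box at -248 to -244 and another at -165 to -161. *Psmb10* and both windows of *Psme2* held none. Matches did not overlap each other. In all, 2 of the 8 genes had an ISRE type match, against 8.56% of the 32851 windows of the table, 1 of 8 a GAS match (8.30%), 1 of 8 an NF-kB match (8.46%), 4 of 8 a CCAAT box (37.4%) and 0 of 8 the antioxidant core (12.4%). A match is a description of the letters and not evidence of a bound site, and the absence of one says nothing of the factor.

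**Figure D2:**
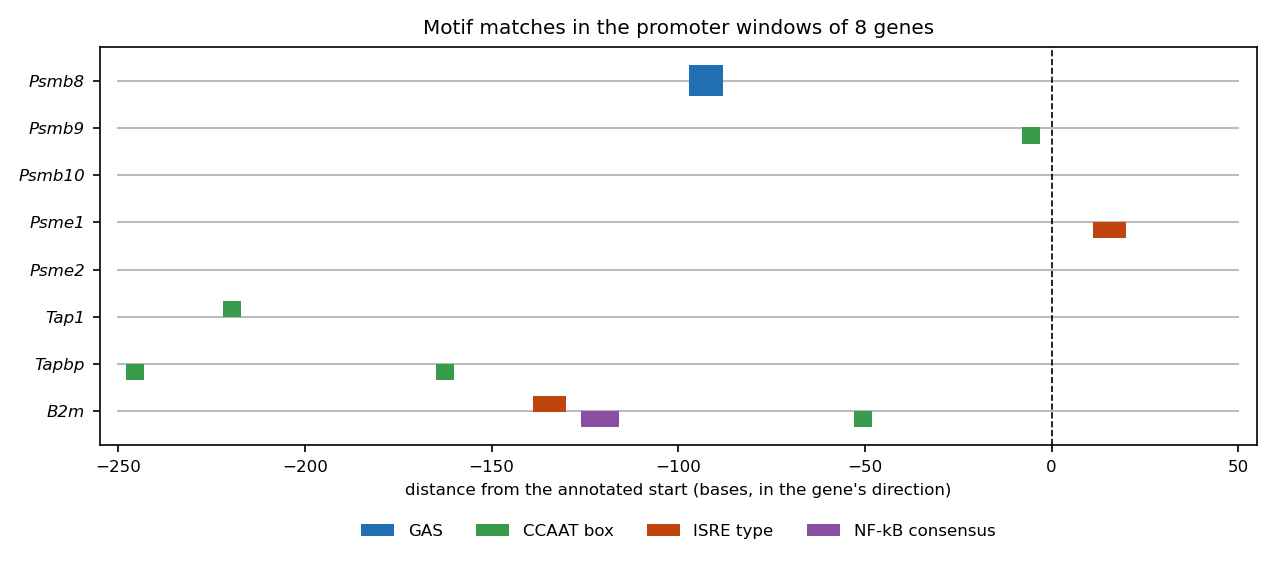
Motif matches in the promoter windows of the 8 genes with a RefSeq window, by distance from the annotated start in bases (dashed line). Blocks above a line are matches on the gene's strand, blocks below it matches on the other strand, and the GAS block covers both. *B2m* holds 3 kinds of match, whereas *Tap1* holds a CCAAT box alone. For *Psme2* neither of 2 windows held a match, and a line stands for both.

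The catalytic subunits of the immunoproteasome differed little from DMSO. *Psmb8*, which encodes β5i, the chymotrypsin-like subunit and a target of ONX0914, had a signal of 21411 in DMSO, 16847 after MG132, 20028 after epoxomicin and 22121 after ONX0914. Its differences of -0.16, -0.12 and 0.09 were all within the software error of 0.20. *Psmb9*, which encodes β1i, had signals of 22695 in DMSO, 24723 after MG132, 28910 after epoxomicin and 24825 after ONX0914. It was above DMSO on every inhibitor array, by 0.31 and 0.33 after MG132 and epoxomicin, beyond the software error, and by 0.17 after ONX0914, within it. *Psmb10*, which encodes β2i, read 48941 in DMSO, 39963 after MG132, 43782 after epoxomicin and 50835 after ONX0914, with differences of -0.11, -0.18 and 0.09. All 3 of its differences lay within the error, as those of *Psmb8* did. Without scaling between arrays, the MG132 values became -0.35 for *Psmb8*, 0.12 for *Psmb9* and -0.29 for *Psmb10*, each on the other side of the error.

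Each inducible subunit takes the place of a constitutive one, and the pair can be read on the same array, where any scaling of the whole array cancels. *Psmb10* minus its counterpart *Psmb7* (β2) gave -0.44 after MG132, -0.53 after epoxomicin and -0.29 after ONX0914, each ± 0.29. This was the only catalytic pair beyond the error with every inhibitor, the ONX0914 value at its edge and, with normexp background correction, within it (-0.25). *Psmb7* itself differed from DMSO by 0.34, 0.35 and 0.38, beyond the error, while *Psmb10* lay within it. *Psmb8* minus *Psmb5* (β5) gave -0.23, -0.11 and -0.07, none beyond the error. *Psmb9* minus *Psmb6* (β1) gave 0.12 after MG132, 0.32 after epoxomicin and -0.13 after ONX0914, and only the epoxomicin value was beyond ± 0.29. No catalytic pair had shifted by 1.5-fold in either direction.

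PA28, a ring of α and β chains that caps the 20S core and opens it, was also close to DMSO. *Psme1* (PA28α) was printed 10 times on each array, and its mean signal was 33976 in DMSO, 29818 after MG132, 34179 after epoxomicin and 37762 after ONX0914. Over its spots the difference ranged from -0.06 to 0.08 after MG132, from -0.07 to 0.06 after epoxomicin and from 0.15 to 0.26 after ONX0914. Every spot thus stood higher after ONX0914, but the mean difference of 0.19 lay within the software error of 0.20. The 10 spots repeat 1 hybridization and are not separate cultures. *Psme2* (PA28β) read 71263 in DMSO, 57422 after MG132, 64806 after epoxomicin and 69332 after ONX0914. These signals gave differences of -0.13, -0.16 and 0.00, and its second probe gave -0.16, -0.24 and 0.09. Neither chain separated from *Psme3*, which encodes PA28γ, the activator of the nucleus, beyond ± 0.29, although *Psme2* minus *Psme3* came close after ONX0914 (-0.28) and passed it with quantile normalization (-0.32), and *Psme1* minus *Psme2* lay between 0.12 and 0.19. *Psme4*, which encodes the activator PA200, differed from DMSO by 0.22, 0.28 and 0.24.

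The 2 chains of the TAP transporter, which pumps cytosolic peptides into the endoplasmic reticulum, parted. *Tap1*, printed 10 times per array, had a mean signal of 1575 in DMSO, 5424 after MG132, 6274 after epoxomicin and 3760.5 after ONX0914. All inhibitor arrays lay above the DMSO array, and no spot overlapped, with differences over the spots from 1.89 to 2.004 after MG132, from 1.91 to 2.02 after epoxomicin and from 1.22 to 1.37 after ONX0914. The mean differences of 1.97, 1.97 and 1.29 correspond to 3.91-fold, 3.93-fold and 2.45-fold higher levels, and lie above at least 97.45% of the genes compared. *Tap2* read 11733 in DMSO, 14642 after MG132, 14789 after epoxomicin and 14150 after ONX0914. It was above DMSO on each array as well, by 0.50, 0.31 and 0.31, which is a 1.42-fold, 1.24-fold and 1.24-fold difference. *Tap1* exceeded *Tap2* by 1.46 after MG132, 1.66 after epoxomicin and 0.98 after ONX0914 (± 0.29).

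*Tap1* and *Psmb9*, which start from the shared stretch shown above, also parted. *Psmb9* minus *Tap1* was -1.66 after MG132, -1.64 after epoxomicin and -1.13 after ONX0914 (± 0.29), a gap of 3.16-fold, 3.13-fold and 2.18-fold. Of the 4 genes in this block of the MHC region, in the order *Psmb9*, *Tap1*, *Psmb8* and *Tap2*, *Tap1* was thus the only one at least 2-fold from DMSO on any array.

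**Figure D3:**
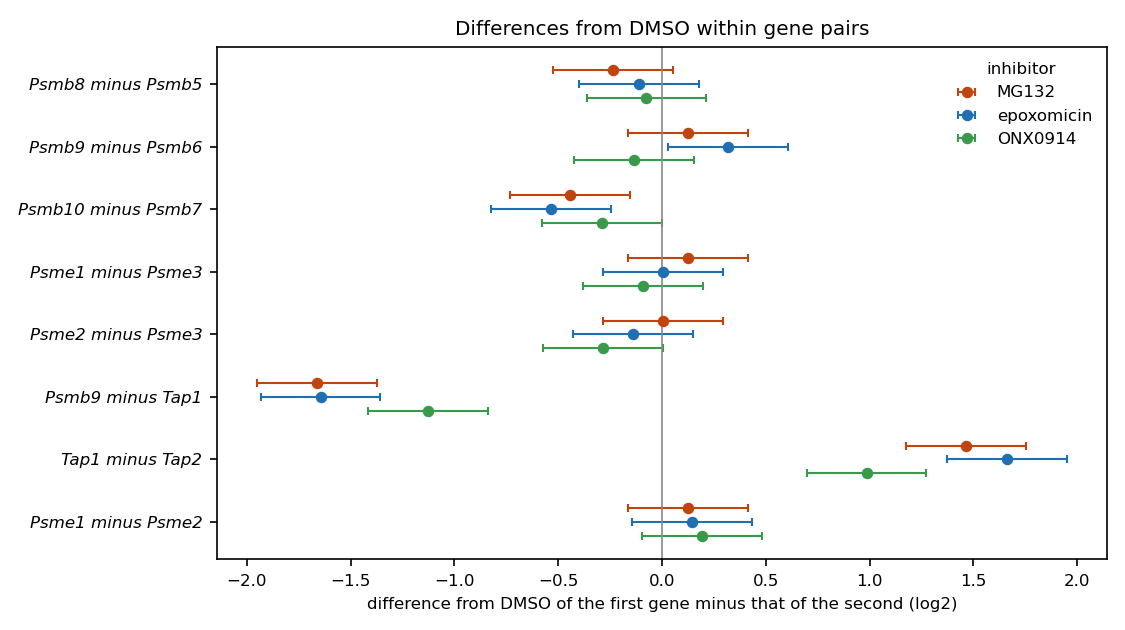
Difference from DMSO of the first gene of each pair minus that of the second, on the log2 scale, for the 3 inhibitors. Bars are the scanner software's error for 2 differences (± 0.29). The pairs of *Tap1* with *Psmb9* and with *Tap2* lie farthest from 0, and *Psmb10* minus *Psmb7* lies below 0 with every inhibitor.

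Tapasin and β2-microglobulin stood slightly above DMSO on every inhibitor array. *Tapbp*, which encodes tapasin, the bridge between TAP and the empty class I molecule, read 10103 in DMSO, 10764 after MG132, 11616 after epoxomicin and 12977 after ONX0914. Its differences were 0.28, 0.18 and 0.40, with the highest level on the ONX0914 array. *B2m*, which encodes the light chain common to class I molecules, read 131654 in DMSO, 139646 after MG132, 168670 after epoxomicin and 149190 after ONX0914. The differences of 0.27, 0.34 and 0.22 were all beyond the software error and amount to 1.21-fold, 1.26-fold and 1.16-fold, but only the epoxomicin value stayed beyond it under every alternative. After MG132, *B2m* fell back within the error without scaling (0.085) and with a shift to the median (0.17), as did *Tapbp* (0.091 and 0.18). After ONX0914, *B2m* did so under 4 of 8 alternatives, the lowest at 0.16.

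*Nlrc5* encodes an NLR protein that switches on class I heavy chain genes, *B2m*, *Tap1* and *Psmb9*. By its brighter probe, *Nlrc5* had the largest difference of the 10 genes on every inhibitor array. Its signal was 2865 in DMSO, 13115 after MG132, 16796 after epoxomicin and 8191 after ONX0914. The differences of 2.38, 2.53 and 1.55 correspond to 5.20-fold, 5.78-fold and 2.94-fold higher levels. A second, much fainter probe read 90.7 in DMSO, 238 after MG132, 302 after epoxomicin and 173 after ONX0914. It put the 4 arrays in the same order. Its differences were smaller, at 1.58, 1.72 and 0.97, each below that of *Tap1* and the last just under 2-fold. With normexp background correction, which lifted faint spots on the DMSO array, this probe gave 0.18, 0.25 and -0.45, whereas the bright probe stayed at least 2-fold higher. Of the genes known to be switched on by *Nlrc5*, *Tap1* was at least 2-fold higher on the inhibitor arrays, while *Psmb9* and *B2m* were not.

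**Figure D4:**
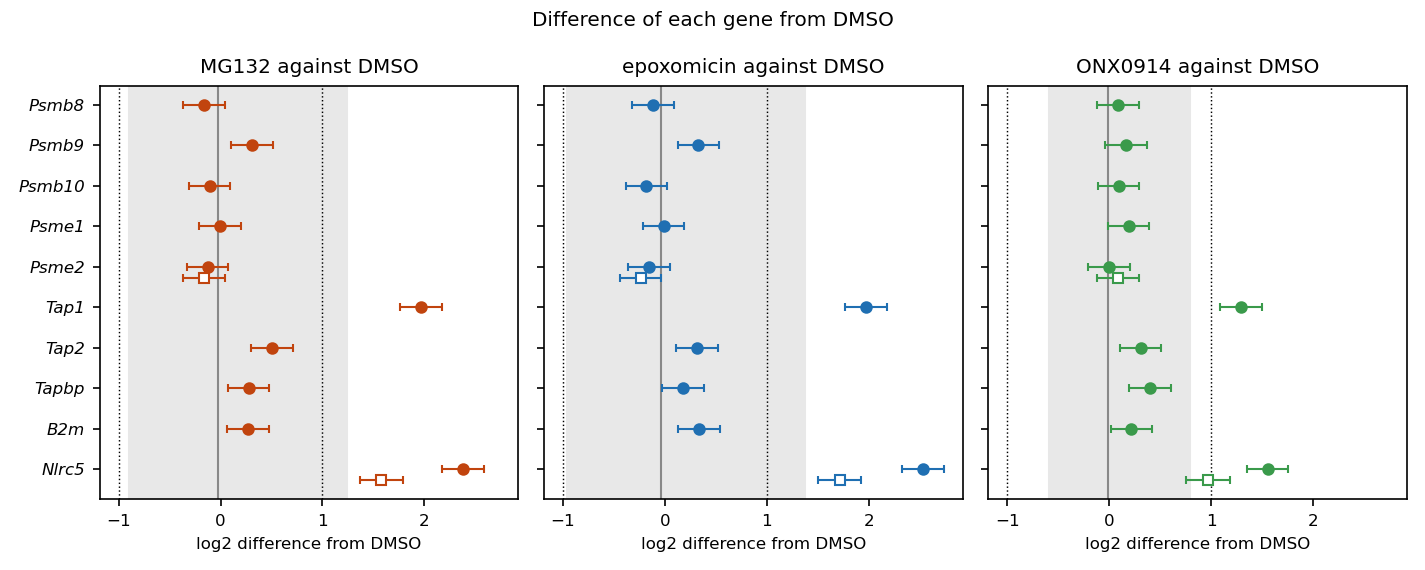
Log2 difference from DMSO of each gene after MG132, epoxomicin and ONX0914. Circles are the probe that stands for a gene, squares a second probe, bars the scanner software's error, grey bands the range from the 5th to the 95th percentile of all genes compared, grey lines their median and dotted lines the 2-fold mark. *Tap1* and *Nlrc5* lie beyond the grey band with each inhibitor, and the other 8 genes within it.

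The inhibitors were also set against each other at their common dose and time, which leaves out the DMSO array. Epoxomicin and MG132 gave values within the software error for each of the 10 genes, with differences between -0.19 for *Tap2* and 0.15 for *Nlrc5* (± 0.20). That error is a set minimum. *Tap2*, *Nlrc5* and *Tapbp* (-0.09) passed the smaller spread between spots for a difference (0.087), and the other genes did not. This spread covers repeats of 1 hybridization only. The count of 0 also depended on the scaling, since 5 genes passed the error without scaling. *Nlrc5* was higher after MG132 than after ONX0914 by 0.82 and higher after epoxomicin than after ONX0914 by 0.98. *Tap1* was higher by 0.67 and 0.68. The other genes beyond the error stood higher after ONX0914 instead. These were *Psmb8* against MG132 (-0.25), and *Psmb10* (-0.27) and *Tapbp* (-0.22) against epoxomicin. In all, 3 of 10 genes differed beyond the error between MG132 and ONX0914, 4 of 10 between epoxomicin and ONX0914 and 0 of 10 between epoxomicin and MG132. The share of all genes beyond this error was not computed, so these counts do not set the 10 genes apart from other genes. The counts against ONX0914 ranged from 3 to 7 over the alternatives, and *Psmb8* against MG132 (-0.20) fell within the error under 1 of them and *Tapbp* against epoxomicin under 4 (to -0.16). *Tap1* and *Nlrc5* stayed beyond it throughout. These are values of 3 cultures, and none was tested.

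The class I heavy chains, which hold the peptide at the cell surface, had 16 of 20 listed genes with a probe, and most stood slightly above DMSO. Their median was 0.37 after MG132, 0.32 after epoxomicin and 0.28 after ONX0914. The classical genes *H2-K1* (0.23, 0.27 and 0.22) and *H2-D1* (0.29, 0.25 and 0.23) were close to these medians and to *B2m*. *H2-T24*, a nonclassical gene, was highest, with signals of 246 in DMSO, 601 after MG132, 701 after epoxomicin and 355 after ONX0914, and differences of 1.48, 1.49 and 0.57, which became 0.67, 0.66 and -0.14 with normexp. *H2-T3* was not well above background in DMSO and after epoxomicin, and was at least 2.19-fold higher after MG132 and 2.19-fold after ONX0914, a direction that turned with normexp (-1.07 and -1.17). *Mr1*, which presents vitamin B metabolites to MAIT cells, had the lowest mean, with -0.98, -0.93 and -0.23. In this list 2 genes were at least 2-fold higher after MG132, 1 after epoxomicin and 1 after ONX0914, where the shares of all genes were 7.24%, 8.48% and 3.27%. With normexp 0 were higher in each comparison, and 3, 3 and 2 were at least 2-fold lower. Probes of these near-identical genes can bind each other's transcripts, so that single values of the H2 genes are uncertain.

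Around the loading complex and the peptide supply, no gene passed 2-fold in either direction. Of all genes, 7.24%, 8.48% and 3.27% were at least 2-fold higher and 3.68%, 4.4% and 1.4% at least 2-fold lower. In lists of 8 and 7 genes a count of 0 is near these shares and does not set the lists apart. The 8 partners of loading in the endoplasmic reticulum had a median of -0.19 after MG132, -0.25 after epoxomicin and 0.11 after ONX0914. *Hspa5*, the chaperone BiP, was highest (0.64, 0.45 and 0.51), and *Uggt1*, which checks the folding of glycoproteins, was lowest (-0.86, -0.73 and -0.14). *Calr*, the chaperone calreticulin that joins tapasin in the loading complex, read 60366 in DMSO, 34746 after MG132, 39462 after epoxomicin and 62625 after ONX0914. The 7 cytosolic peptidases with a probe had medians between 0.01 and 0.14, from *Nln* (-0.11, -0.11 and -0.09) to *Tpp2*, which trims long peptides (0.59, 0.69 and 0.18).

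The median of the constitutive 20S core stood slightly above DMSO with each inhibitor and was highest after ONX0914. The 14 subunits had medians of 0.20, 0.09 and 0.36. Above DMSO were 13 of 14 after MG132, 10 after epoxomicin and all 14 after ONX0914, the last from 0.14 for *Psma2* to 0.59 for *Psma5*. With normexp the medians became 0.34, 0.28 and 0.48. Over the alternatives they fell as low as 0.02 after MG132, 0.01 after epoxomicin and 0.30 after ONX0914. *Psmb2* had the highest mean over the inhibitors (0.28, 0.45 and 0.41) and *Psma2* the lowest (-0.09, -0.14 and 0.14). Of the 8 other activators and assembly factors, *Psmg3* was highest (0.45, 0.45 and 0.13) and *Psmg2* lowest (-0.58, -0.46 and -0.26). *Pomp*, the chaperone that builds β subunits into the core and is needed for the immunoproteasome too, read 29323 in DMSO, 17703 after MG132, 19216 after epoxomicin and 30731 after ONX0914, or -0.54, -0.63 and 0.11. None of these genes was at least 2-fold from DMSO. The shares of all genes were 7.24%, 8.48% and 3.27% higher and 3.68%, 4.4% and 1.4% lower. Counts of 0 in lists this short do not set them apart from all genes.

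Of the regulators of the pathway, 6 of 15 were at least 2-fold higher after MG132, 5 after epoxomicin and 3 after ONX0914. None was at least 2-fold lower, and the shares of all genes higher were 7.24%, 8.48% and 3.27%. Their medians were 0.39, 0.36 and 0.26. These counts depended on the background correction. With normexp 4, 4 and 2 regulators were at least 2-fold higher. At least 2-fold lower were then *Rfx5* after epoxomicin (-1.14) and *Rfxap* after ONX0914 (-1.11). *Irf1*, a transcription factor that acts on the shared promoter of *Tap1* and *Psmb9*, had signals of 9157 in DMSO, 45798 after MG132, 64688 after epoxomicin and 55070 after ONX0914. Unlike *Tap1* and *Nlrc5*, *Irf1* was about as high after ONX0914 (2.63) as after MG132 (2.51) and epoxomicin (2.80). *Stat2*, a subunit of the complex that answers type I interferon, followed the order of *Nlrc5* (2.31, 2.45 and 1.49). *Irf8* (1.20, 1.54 and 0.79) and *Irf9* (1.25, 1.55 and 0.83) passed after MG132 and epoxomicin, and *Rfx5* after MG132 (1.05), from a faint probe that turned with normexp (-0.86). *Rfxap*, a subunit of the RFX complex through which *Nlrc5* acts, was lowest (-0.40, 0.04 and -0.47).

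**Figure D5:**
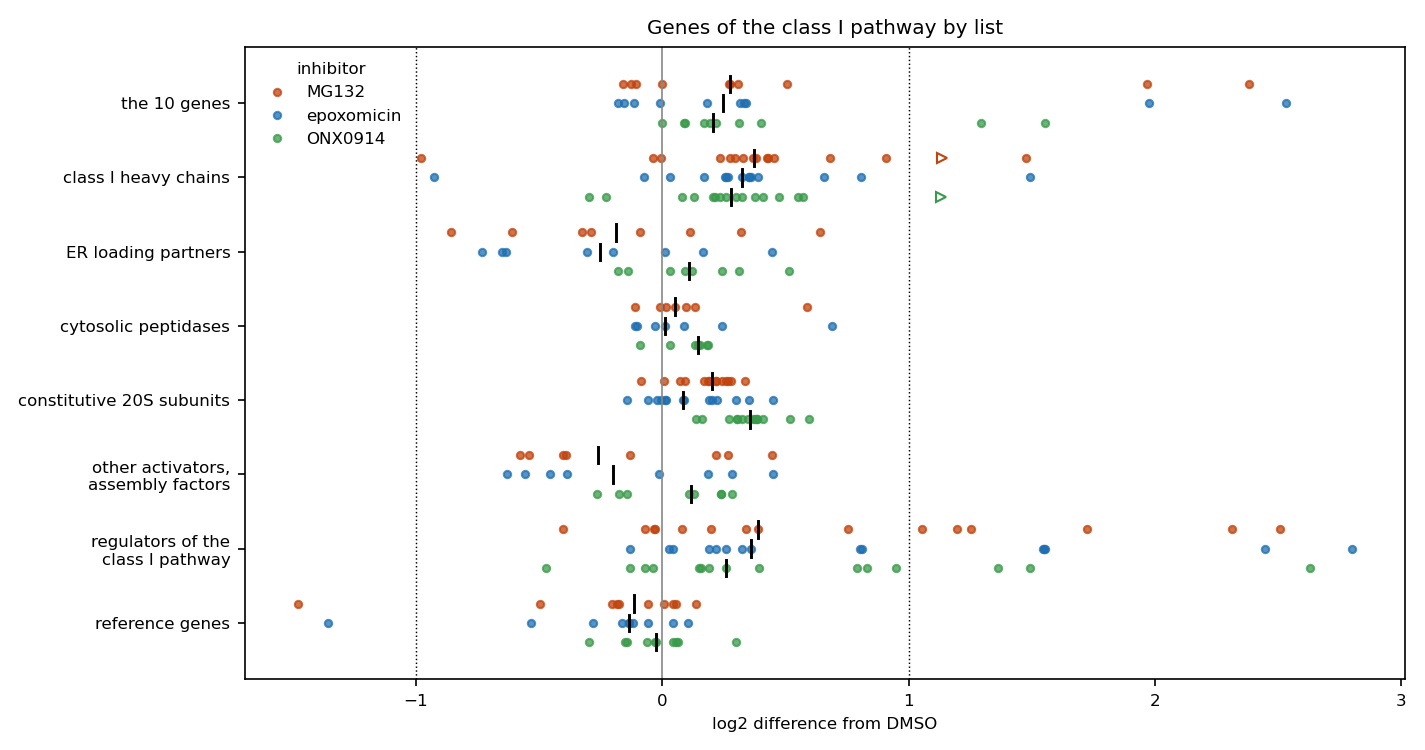
Log2 difference from DMSO of the genes of 8 lists, with 1 point per gene and inhibitor, short black bars for the medians, open triangles for lower bounds (*H2-T3*) and dotted lines at 2-fold. Regulators reach 2.80 (*Irf1*), the 10 genes reach 2.53 (*Nlrc5*), and the genes of the 20S core, the peptidases and the loading partners stay within 2-fold.

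The 10 reference genes, which include *Actb*, *Gapdh* and *Hprt*, had medians of -0.12, -0.13 and -0.03, with *Gusb* lowest (-1.48, -1.36 and -0.30) and *Rplp0* highest on average (0.14, 0.10 and 0.04). Outside the lists, the genes with differences nearest to the medians of the 10 genes were *Rrn3*, *Rab6a*, *Naip2*, *Surf2* and *Ksr1*, at a distance of 0.01 to 0.03 over 3 comparisons. As many as 1387 of the 12633 genes searched lay within 0.25 of the same point, so that this likeness is common. Around *Nlrc5* only 8 genes lay within 0.25, of which the nearest were *Ifi213*, *Isg20*, *Cth*, *Ifi44l* and *Ifi202b*. Around *Tap1* there were 15, led by *Csprs*, *Gm7609*, *Dtx3l*, *Cars* and *Trim46*. The searches around single genes were chosen after their values had been seen.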

How the data were processed

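RNA of 4 J774.1 cultures was hybridized to Agilent arrays, 1 array per condition. The deposited scanner files come from Feature Extraction 10.7.1.1, and their intensity per spot is background-subtracted but not scaled between arrays. A second deposited table holds log2 values relative to each probe's median, used as an alternative. The Methods name a human design, while the headers describe a mouse design.

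Control and outlier spots were left out, the 75th percentile of the array was subtracted from the log2 intensity and spots of a probe were averaged. Probes were named through their RefSeq accession (26581 of 39429, or 67.4%), and the probe with the highest mean stood for a gene. A gene was compared when well above background on at least 1 of both arrays. The threshold was 2-fold. A fold against a probe at background is a lower bound, taken against the array's lowest signal well above background or, if higher, the probe's own.

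The genes and lists were chosen with earlier results of these data known. The genes named are all 10, their exchange partners *Psmb5*, *Psmb6*, *Psmb7*, *Psme3* and *Psme4*, the list genes past 2-fold with every inhibitor, the highest and lowest of each list, and the 5 nearest to the medians. *H2-K1*, *H2-D1*, *H2-T3*, *Calr*, *Pomp*, *Psma5*, *Csf1r*, *Cd14*, *Spi1*, *Irf8*, *Irf9* and *Rfx5* were added after their values were seen. Some list genes are counted but not reported here by name. Alternatives were normexp (offset 50, on the median pixel brightness, with limma 3.58.1 in R 4.3.3), quantile normalization, a shift to the median, no scaling, the 75th percentile over detected probes, the value table, the mean over probes, signals in place of bounds, thresholds of 1.5-fold and 4-fold, and 2 filters on dim probes. Calculations were tested on simulated data and used Python 3.11.15, numpy 2.4.6, pandas 2.3.3 and matplotlib 3.10.9.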

Additional observations from a re-analysis of the deposited data

How the results depend on the processing

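*Tap1* and *Nlrc5* stayed at least 2-fold higher with every inhibitor, and the other 8 genes below 2-fold, under the 8 alternatives for background, scaling, probes and bounds. Over these, *Tap1* ranged from 1.78 to 1.98 after MG132, from 1.88 to 1.99 after epoxomicin and from 1.20 to 1.29 after ONX0914, and *Nlrc5* from 1.98 to 2.42, from 2.12 to 2.56 and from 1.26 to 1.61. At 4-fold the count of higher genes was 1 after MG132, 1 after epoxomicin and 0 after ONX0914. A move is a change of at least 0.087, the spread between spots for a difference. The median of the 10 genes moved with normexp, to 0.37, 0.38 and 0.33 in the order MG132, epoxomicin and ONX0914, and for MG132 without scaling (0.088) and with a shift to the median (0.17). It stayed above 0 throughout. Normexp also moved *Psmb9* minus *Tap1* (-1.40, -1.40 and -0.90), *Tap1* minus *Tap2* (1.23, 1.42 and 0.74), *Psme1* minus *Psme3* (0.12 after epoxomicin and 0.0076 after ONX0914) and *Psme2* minus *Psme3* (-0.20 after ONX0914), and quantile normalization moved *Psmb8* minus *Psmb5* (-0.12 after MG132 and -0.023 after epoxomicin). The other 181 pair values did not move, and the cause of the quantile shifts was not tested. Normexp left a lower quartile of signals of 326 in DMSO but of 95.1 to 98.1 after the inhibitors, where the processed signals had 5.21 in DMSO and 5.34 to 5.98, and so lowered the differences of faint probes, among them *Rfx5*, *H2-T3* and the second probe of *Nlrc5* given above. Normexp put the median of all genes at -0.22, -0.23 and -0.12, a shift to the median put it at -0.12, -0.12 and -0.01, and no scaling at -0.21, -0.02 and -0.04, so that the small differences of single genes are relative to these. Signs turned for some values near 0 of *Psmb8*, *Psmb10*, *Psme1*, *Psme2*, *Psme4*, *Psma2*, *Uggt1* and *Rfxap*, and the median of the cytosolic peptidases after MG132 ranged from -0.13 to 0.18. *Mr1* passed 2-fold lower after MG132 under 6 alternatives and after epoxomicin with normexp (-1.28) and a shift to the median (-1.004), and *Uggt1* passed after MG132 without scaling. Of the 16 differences from DMSO beyond the software error, 4 fell within it under at least 1 alternative (*Psmb9*, *Tapbp* and *B2m* after MG132 and *B2m* after ONX0914), and 10 of the 14 within it passed it. Without scaling, epoxomicin minus MG132 passed it for *Nlrc5* (0.36), *B2m* (0.27), *Psmb8* (0.25), *Psmb9* (0.23) and *Tap1* (0.21), and *Tap2* passed it with quantile normalization (-0.22) and the percentile over detected probes (-0.21).

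With 1 array per condition, there was no replicate to leave out and nothing was tested. No paired analysis was possible because each condition has a single array and no replicate numbers are shared. All 12 probes of the 10 genes were well above background on every array, so that signal over background did not limit them, apart from the faint second probe of *Nlrc5*.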

Other observations

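The genes next to the 10 in RefSeq order, 3 protein-coding genes on either side of each gene or block and any gene inside it, were read as well, a choice made after the values of the 10 genes had been seen. Of 37 such neighbours, 35 had a probe. After MG132, 5 of the 28 compared were at least 2-fold higher and 0 lower, after epoxomicin 5 of 29 higher and 1 lower, and after ONX0914 4 of 28 higher and 0 lower. The shares of all genes higher were 7.24%, 8.48% and 3.27%, and those lower 3.68%, 4.4% and 1.4%. Their medians were 0.01, 0.02 and 0.04. Beside *Psmb9* lie genes of the MHC class II pathway. *H2-DMa* and *H2-DMb1*, whose products load peptides onto class II molecules, stood below DMSO on each inhibitor array, with differences of -0.78, -1.04 and -0.36 for *H2-DMa* and of -0.95, -0.92 and -0.56 for *H2-DMb1*, the latter from a signal of 106 in DMSO. *H2-Ob*, on the far side of *Tap2*, had -0.22, -0.68 and -0.20. The class II chain genes *H2-Ab1* and *H2-Aa* were not well above background on any array.

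Several of the neighbours were at least 2-fold higher. *Daxx*, a histone chaperone 2 genes away from *Tapbp*, had 2.15, 2.24 and 1.62. *Trim69*, which follows *B2m*, had 2.15, 2.45 and 1.26, from a faint probe that read 29.0 in DMSO. *Herpud1*, a gene of the response to unfolded proteins that precedes *Nlrc5*, had 2.21, 2.27 and 1.88, while *Cpne2* on the other side of *Nlrc5* had -0.01, -0.13 and 0.25. Near *Psme1* and *Psme2*, *Pck2* had 1.26, 1.26 and 1.06 and *Irf9* had 1.25, 1.55 and 0.83, while *Emc9*, which lies between both PA28 genes, had -0.82, -0.73 and -0.37. Apart from *Irf9*, which is also among the regulators above, the alternatives for background and scaling were not run on these neighbours. No cause of the differences of these neighbours was tested.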
